A study of Mus musculus with 18 samples.

Results

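The collagen genes were examined in RNA from mouse pancreatic acinar cells, the enzyme-secreting cells of the exocrine pancreas, kept in suspension culture. They were taken as the rows of the count table whose gene symbol is Col, a number, a and a number, which gave 44 of 46603 listed genes. The 44 genes comprised 11 fibrillar collagens, 8 basement membrane collagens and 25 others. The cells came from xCT-/- mice (KO), which lack the cystine transporter subunit encoded by Slc7a11 in all cells, and from xCT+/+ mice (WT), and they were collected after isolation (day 0) and after 1 and 4 days of culture. The labels name no added agent in these groups, the ages of the mice that gave the cells are not stated, and the KO is constitutive, so that any other cell type in the preparation also lacked xCT. Each of the 6 groups had 3 libraries, and each question was whether collagen transcripts changed during culture and whether they differed between KO and WT.

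Collagens are built from 3 chains wound into a triple helix, and the chains are named by type and number, so that Col1a1 and Col1a2 encode the chains of type I collagen. Fibrillar collagens form the tensile fibrils of interstitial connective tissue, type IV collagens form the sheet-like network of basement membranes on which epithelial cells rest, and the remaining types form beaded filaments, anchoring fibrils or links on the fibril surface. In the pancreas, fibroblasts and stellate cells are the known main source of fibrillar collagen, whereas acini are surrounded by a basement membrane.

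The sequences before the start sites of 4 of these genes are shown because the first pair is transcribed in opposite directions from almost 1 point and moved together in these data, and because the second pair encodes fibrillar chains whose ratio to Col1a1 shifted. Of the 44 genes, 35 matched a window in the promoter table from RefSeq (GRCm38.p6). Col4a1 and Col4a2 start 21 bases apart on chromosome 8, on opposite strands. The 250 bases before each RefSeq start, which for Col1a2 differs from the start in the count table, are given from 5′ to 3′ on the strand of the gene, in lower case, with capitals for 3 motifs found on either strand. They are GGGCGG, known as the GC box, then CCAAT, known as the CCAAT box, and TATAAA, known as the TATA box. The windows lie at chr8:11312827-11313076 (minus strand) for Col4a1, chr8:11312555-11312804 (plus strand) for Col4a2, chr6:4505368-4505617 (plus strand) for Col1a2 and chr1:45311288-45311537 (plus strand) for Col3a1.
Col4a1: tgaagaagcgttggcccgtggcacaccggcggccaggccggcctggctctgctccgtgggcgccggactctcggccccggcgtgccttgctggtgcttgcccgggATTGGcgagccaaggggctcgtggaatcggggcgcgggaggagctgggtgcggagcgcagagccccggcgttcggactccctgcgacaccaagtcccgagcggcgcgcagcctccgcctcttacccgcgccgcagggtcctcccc
Col4a2: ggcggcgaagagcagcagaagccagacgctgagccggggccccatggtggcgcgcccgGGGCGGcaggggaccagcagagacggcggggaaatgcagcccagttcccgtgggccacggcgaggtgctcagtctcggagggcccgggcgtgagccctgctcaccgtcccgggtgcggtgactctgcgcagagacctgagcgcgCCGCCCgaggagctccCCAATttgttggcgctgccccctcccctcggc
Col1a2: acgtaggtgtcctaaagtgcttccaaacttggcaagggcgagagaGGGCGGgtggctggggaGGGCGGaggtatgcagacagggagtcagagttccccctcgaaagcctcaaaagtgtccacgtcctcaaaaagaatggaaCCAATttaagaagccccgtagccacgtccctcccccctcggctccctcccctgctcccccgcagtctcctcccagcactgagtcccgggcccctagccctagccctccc
Col3a1: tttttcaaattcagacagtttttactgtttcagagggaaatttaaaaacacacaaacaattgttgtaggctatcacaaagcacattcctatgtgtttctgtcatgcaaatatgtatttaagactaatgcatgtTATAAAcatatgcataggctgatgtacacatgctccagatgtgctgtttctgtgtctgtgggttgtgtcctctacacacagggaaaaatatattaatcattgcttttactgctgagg
The letters of neighbouring motifs can share bases. GGGCGG was found 2 times in the Col4a2 and in the Col1a2 window, and in 22 of the 38 collagen windows (57.9%), against 32.7% of all 32851 windows of this length. CCAAT was found once in each of the Col4a1, Col4a2 and Col1a2 windows, in 34.2% of collagen windows and in 33.8% of all windows. TATAAA was found once before Col3a1, in 13.2% of collagen windows and in 12.4% of all windows. These matches describe the letters of the windows and are not mapped sites.

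Slc7a11 had 1 to 33 counts in every KO library, against 48 to 50 in day 0, 618 to 830 in day 1 and 2037 to 2286 in day 4 WT libraries. Total counts ranged from 12127474 to 20135435 per library. Markers of acinar cells took about 49.4% of counts in KO and 49.0% in WT at day 0 and 5.05% in KO and 6.54% in WT at day 4, so that the RNA pool itself changed during culture. Levels are therefore given as CPM, the standard unit of counts relative to the library total, after scaling by TMM, which sets the middle of the genes equal between libraries, and changes over time are relative to that middle. Scaled by library totals, the median log2 change of all genes was 1.29, 1.86 and 3.23 in KO (day 1 against day 0, day 4 against day 1 and day 4 against day 0) and 0.998, 2.03 and 3.10 in WT, and between KO and WT it was 0.06 at day 0, 0.32 at day 1 and 0.15 at day 4. Collagen transcripts were rare and took 0.0183% to 0.0314% of counts in KO and 0.0121% to 0.0253% in WT at day 0. Libraries numbered 1 in WT had counts of Ddx3y, a Y-linked gene, while all other libraries had none and had Xist, so that sex and genotype cannot be fully told apart. Leaving out these WT libraries is reported beside the differences between KO and WT that it moves. Of 71 calls of single genes given by library, 14 were lost without them. A pair of libraries stood apart from their groups in collagens: KO day 1 replicate 1, whose summed fibrillar level was 50.2 CPM against 11.6 and 11.8 CPM in the other KO day 1 libraries, and WT day 0 replicate 1, at 76.1 CPM against 179.8 and 197.9 CPM.

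Of the 44 collagen genes, 27 passed the filter on low counts and were tested. The 27 were those expressed in at least 1 group, so the counts below do not describe all 44. The other 17 had at most 21 counts in any library. They were Col2a1, Col11a1 and Col24a1 among the fibrillar collagens, Col4a3 and Col4a4 among those of basement membranes, and Col6a4, Col6a5, Col8a2, Col9a1, Col9a2, Col9a3, Col10a1, Col17a1, Col19a1, Col22a1, Col25a1 and Col28a1 among the others. Col9a1, a cartilage collagen, had no count in any library. Col2a1, the main fibrillar collagen of cartilage, had at most 5 counts in a library.

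The 3 classes of collagen took different courses. Summed fibrillar collagens in KO were at 188.4 ± 62.7 CPM at day 0, 24.5 ± 22.2 CPM at day 1 and 47.3 ± 17.8 CPM at day 4 (SD, n = 3). In WT they were at 151.3 ± 65.7 CPM, 8.25 ± 1.21 CPM and 322.7 ± 51.9 CPM (SD, n = 3), so that the sum fell at day 1 in both genotypes and only the WT libraries ended above their day 0 range. Basement membrane collagens were at 288.5 ± 63.8, 99.6 ± 32.5 and 35.3 ± 5.81 CPM in KO and at 217.6 ± 41.8, 51.9 ± 4.32 and 93.6 ± 16.8 CPM in WT (SD, n = 3 each). Other collagens were at 178.4 ± 22.2, 73.0 ± 5.81 and 17.5 ± 2.90 CPM in KO and at 151.8 ± 15.1, 69.3 ± 2.41 and 66.4 ± 9.83 CPM in WT (SD, n = 3 each). At day 4 the KO libraries lay below the WT libraries in every class without overlap, at 29.6 to 65.2 against 268.7 to 372.2 CPM for fibrillar, 30.9 to 41.9 against 78.0 to 111.4 CPM for basement membrane and 14.2 to 19.6 against 55.9 to 75.4 CPM for other collagens. With 3 libraries in each group an exact permutation test of a sum cannot reach the threshold of 0.05, and these sums were not tested. Scaled by library totals, the fibrillar sum at day 4 was 157.3 CPM in KO against 959.6 CPM in WT, and in KO it then lay above its day 0 value of 74.4 CPM. Basement membrane collagens with library totals were at 113.5, 93.6 and 117.2 CPM in KO and 83.5, 38.8 and 278.4 CPM in WT at days 0, 1 and 4, so that in KO the day 4 mean was no longer below day 0 and in WT it was above. Other collagens were then at 70.3, 68.1 and 58.1 CPM in KO and 57.9, 51.8 and 197.2 CPM in WT. In bulk RNA, fewer cells of a type and less RNA per cell cannot be told apart.

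**Figure D1:**
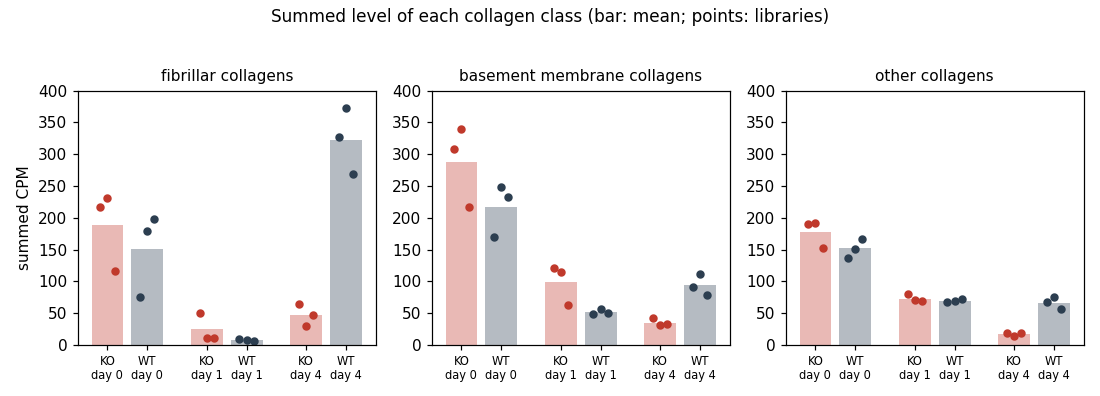
Summed CPM (scaled by TMM, linear axis from 0) of the fibrillar, basement membrane and other collagen genes in KO (red) and WT (grey) at days 0, 1 and 4; bars are means and points are the 3 libraries of a group. At day 4 the fibrillar sum was 29.6 to 65.2 CPM in KO and 268.7 to 372.2 CPM in WT.

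During the first day most tested collagens fell in both genotypes. Relative to day 0, KO day 1 had 15 of 27 tested collagens lower and 2 higher, where 27.6% of all 13203 tested genes were lower and 30.5% higher (adjusted p under 0.05, edgeR). WT day 1 had 17 lower and 1 higher, where 26.9% of all genes were lower and 28.6% higher. The median log2 change of the tested collagens was -1.54 in KO and -2.75 in WT (-2.55 with genes at 0 in a group set to their bound), against 0.05 and 0.01 over all genes. With library totals the counts were 9 lower and 6 higher in KO and 14 lower and 4 higher in WT. Of all 13203 genes, 705 were then lower and 9173 higher in KO, and 943 lower and 8168 higher in WT. With TMM the higher ones were Col18a1 and Col26a1 in KO and Col26a1 in WT.

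From day 1 to day 4 the genotypes took separate courses. In KO, day 4 had 2 of 27 collagens higher and 9 lower than day 1, where 26.2% of all genes were higher and 27.1% lower. In WT, day 4 had 19 higher and 3 lower than day 1, where 26.3% of all genes were higher and 26% lower. The KO counts rested in part on 1 library, since without KO day 1 replicate 1 they were 7 higher and 5 lower. With library totals the counts were 15 higher and 2 lower in KO and 23 higher and 2 lower in WT. Of all 13203 tested genes, 12031 were then higher and 347 lower in KO, and 12204 higher and 300 lower in WT. The count of 2 higher in KO became 1 without KO day 1 replicate 2, KO day 1 replicate 3 or KO day 4 replicate 1, and 5 without KO day 4 replicate 2. The median log2 change was -0.12 in KO and 2.07 in WT (1.97 with genes at 0 set to their bound), against 0.04 and 0.05 over all genes. Over the whole culture, day 4 against day 0 had 3 higher and 16 lower in KO (35.3% of all genes higher, 29% lower) and 3 higher and 9 lower in WT (33.5% higher, 26.9% lower). With library totals these became 11 higher and 6 lower in KO and 23 higher and 3 lower in WT. Of all 13203 tested genes, 12256 were then higher and 348 lower in KO, and 12345 higher and 305 lower in WT. The direction of single genes over the 4 days therefore depends on the scaling where stated.

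Between the genotypes, no collagen was called at day 0 (0 of 27 in either direction, with 0.644% of all genes higher and 0.53% lower in KO). At an unadjusted p under 0.05 there were 2 with edgeR and 2 with DESeq2, of which DESeq2 called 0 after adjustment. At day 1 a single collagen, Col4a1, was called higher in KO and none lower (0.273% of all genes higher and 1.18% lower). At an unadjusted p under 0.05 there were 9 with edgeR and 12 with DESeq2, which called 6 after adjustment. At day 4, 17 of 27 were lower in KO and 1 was higher, where 6.39% of all genes were lower and 3.83% higher. Among the 17 was Col8a1, with 109 counts in WT day 4 and at most 18 in any other group. The 1 higher was Col11a2, with 94 counts in KO day 4 and at most 18 elsewhere. Both passed the filter through the group in which they were high, which favoured their calls. The median log2 difference of the tested collagens at day 4 was -1.74, against -0.02 over all genes. The difference between genotypes in the change from day 0 to day 1 was called for no collagen (0 of 27, where 0.0151% of all genes were higher and 0.0833% lower; 3 at an unadjusted p under 0.05 with edgeR, and 0 called and 7 unadjusted with DESeq2). The change from day 1 to day 4 was lower in KO for 12 of 27 and higher for none, where 1.67% of all genes were lower and 0.924% higher (16 collagens at an unadjusted p under 0.05 with edgeR and 16 with DESeq2). That count was 7 without KO day 1 replicate 1, 7 without WT day 1 replicate 1, 5 without the WT libraries numbered 1 and 16 with DESeq2. The 5 genes called without the WT libraries numbered 1 were Col4a1, Col4a2, Col5a3, Col6a1 and Col6a2. At day 4 itself, 14 to 17 collagens were lower in KO when any single library was left out. Without the WT libraries numbered 1 there were 15. With library totals there were 14, where 369 of all 13203 tested genes were lower and 1010 higher.

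**Figure D2:**
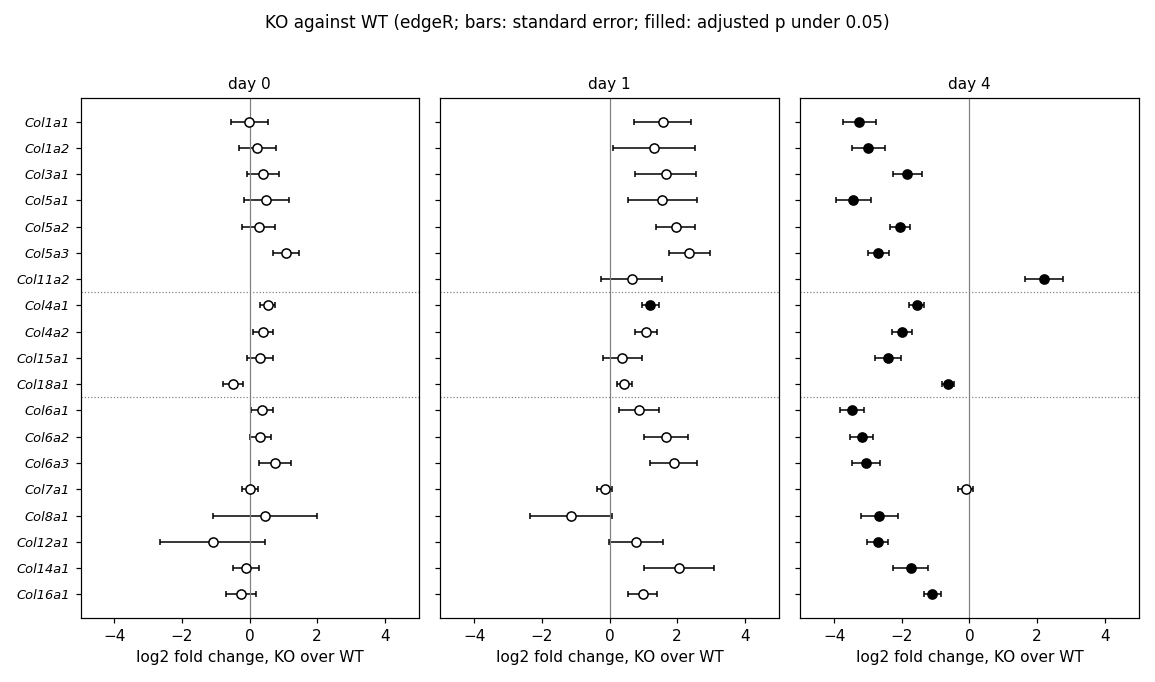
Log2 fold change of KO over WT at days 0, 1 and 4 from edgeR for the 19 collagens given by library, with the standard error as bars; filled points passed an adjusted p under 0.05, and dotted lines part fibrillar, basement membrane and other collagens. Col11a2 is not drawn at day 0, where WT had no count. At day 4, 17 points are filled on the left of 0 and 1, Col11a2, on the right, while Col7a1 lies at -0.11.

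Type I collagen is the main fibril former of connective tissue, and its alpha 1 chain had the highest level per kilobase of all collagens at day 4 in KO and in WT. This gene, Col1a1 (chromosome 11, 94936224 to 94953042, plus strand of GRCm38), had 46.4, 45.6 and 25.3 CPM at day 0, 13.8, 2.39 and 3.48 at day 1 and 21.9, 9.95 and 17.1 at day 4 in the 3 KO libraries of each day. Col1a1 in WT had 15.6, 43.8 and 57.2 CPM at day 0, 2.595, 2.58 and 1.58 at day 1 and 159.9, 178 and 133 at day 4. KO and WT overlapped at days 0 and 1 and were separate at day 4, where all KO libraries lay below all WT libraries. On the log2 scale KO over WT at day 4 was -3.26 (SE 0.48, edgeR adjusted p 0.000972), where SE is the standard error. The level was 9.59-fold lower in KO. In WT, Col1a1 was higher at day 4 than at day 0 (1.999, SE 0.50, edgeR adjusted p 0.00392), whereas in KO it was lower at day 4 than at day 0 (-1.26, SE 0.51, adjusted p = 0.0469). That KO difference did not pass the test in 6 alternatives and had the other sign, 1.81, with library totals.

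The alpha 2 chain of type I collagen, Col1a2 (chromosome 6, 4504814 to 4541544, plus strand), had 49.3, 56.6 and 19.3 CPM at day 0, 5.81, 0.614 and 0.774 at day 1 and 10.3, 3.97 and 8.099 at day 4 in KO. Col1a2 in WT had 18.3, 42.1 and 46.2 CPM at day 0, 1.298, 0.827 and 0.836 at day 1 and 61.9, 67.5 and 48.97 at day 4. As for Col1a1, the day 4 libraries of KO lay below those of WT, with a log2 value of -2.99 (SE 0.48, edgeR adjusted p 0.00165). Unlike Col1a1, Col1a2 was not called between day 4 and day 0 in WT (0.73, SE 0.50, edgeR adjusted p 0.225). The Col1a1 to Col1a2 ratio per kilobase, computed within a library, was 1.93 ± 0.495, 6.80 ± 2.07 and 4.26 ± 0.421 in KO at days 0, 1 and 4 and 1.98 ± 0.364, 4.43 ± 1.30 and 5.01 ± 0.119 in WT (SD, n = 3 each). Its day 1 values rest on few Col1a2 counts, at 87, 9 and 10 in the KO libraries and 14, 8 and 9 in the WT libraries.

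Col3a1, whose single chain makes type III collagen and which is often laid down with type I, lies at chromosome 1, 45311538 to 45349706, plus strand, next to Col5a2. In KO, Col3a1 had 76.1, 79.01 and 46.5 CPM at day 0, 10.2, 2.11 and 2.398 at day 1 and 17.1, 7.79 and 11.1 at day 4. WT had 23.6, 64.9 and 63.2 CPM at day 0, 2.13, 1.24 and 1.3 at day 1 and 41.9, 52.6 and 34.5 at day 4. It was the fibrillar gene among the abundant ones with the smallest day 4 gap, at -1.84 (SE 0.43, edgeR adjusted p 0.0162), and it lost its call without KO day 4 replicate 2, KO day 4 replicate 3 or WT day 4 replicate 2 and with library totals (adjusted p 0.0107 to 0.0971 over all alternatives). The Col1a1 to Col3a1 ratio per kilobase was 0.863 ± 0.0479, 1.97 ± 0.249 and 2.05 ± 0.224 in KO at days 0, 1 and 4 and 1.12 ± 0.206, 2.25 ± 0.749 and 5.51 ± 0.388 in WT (SD, n = 3 each). Day 1 values of this ratio rest on 152, 31 and 31 Col3a1 counts in KO and 23, 12 and 14 in WT. At day 4 this ratio was 1.92, 1.91 and 2.30 in the KO libraries, against 5.71, 5.06 and 5.75 in the WT libraries, without overlap. A ratio within a library does not depend on the scaling between libraries and shows only that the genes changed unequally.

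**Figure D3:**
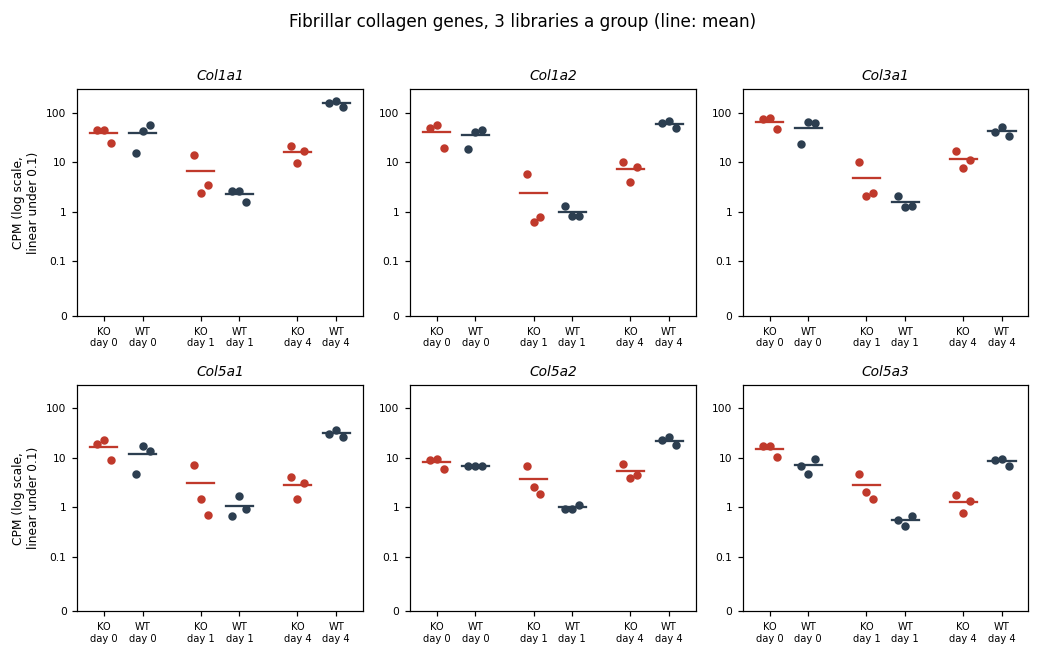
CPM of 6 fibrillar collagen genes in each library (log axis, linear under 0.1) for KO (red) and WT (grey) at days 0, 1 and 4, with the mean as a line. Each gene has its lowest WT level at day 1, and at day 4 the 3 KO points of each gene lie below the 3 WT points.

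Type V collagen is a minor component that sits within type I fibrils and limits their width. Col5a1 (chromosome 2, 27886425 to 28039514, plus strand) had 18.9, 22.6 and 8.97 CPM at day 0, 7.01, 1.43 and 0.696 at day 1 and 4.12, 1.43 and 3.05 at day 4 in KO. In WT, Col5a1 had 4.68, 17.2 and 13.5 CPM at day 0, 0.649, 1.66 and 0.929 at day 1 and 30.6, 36.2 and 26.3 at day 4. Again KO libraries lay below the WT libraries at day 4 only, with a log2 value of -3.43 (SE 0.51, edgeR adjusted p 0.000972). Col5a2 (chromosome 1, 45374321 to 45503282, minus strand) had 8.82, 9.41 and 5.98 CPM at day 0, 6.94, 2.59 and 1.86 at day 1 and 7.62, 3.91 and 4.52 at day 4 in KO. Levels in WT were 6.69, 6.699 and 6.76 CPM at day 0, 0.927, 0.931 and 1.11 at day 1 and 22.4, 26.4 and 18.2 at day 4. At day 1 all 3 KO values of Col5a2 exceeded all WT values (1.95, SE 0.58, edgeR adjusted p 0.129, not called), and at day 4 all lay below them (-2.06, SE 0.30, edgeR adjusted p 0.000536). In WT, Col5a2 was higher at day 4 than at day 0 (1.73, SE 0.39, edgeR adjusted p 0.0014), and in KO the value was -0.59 (SE 0.40, edgeR adjusted p 0.206). The Col5a2 to Col5a1 ratio per kilobase at day 4 was 1.64, 2.42 and 1.31 in KO, against 0.650, 0.646 and 0.611 in WT.

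Col5a3, the third type V chain (chromosome 9, 20770050 to 20815067, minus strand), had 17.3, 17.1 and 10.2 CPM at day 0, 4.81, 2.05 and 1.47 at day 1 and 1.77, 0.774 and 1.36 at day 4 in KO. WT cultures had for Col5a3 6.92, 4.61 and 9.47 CPM at day 0, 0.556, 0.414 and 0.6501 at day 1 and 8.94, 9.63 and 6.89 at day 4. Its KO libraries lay above WT at days 0 and 1 (1.08, SE 0.39, edgeR adjusted p 0.232 and 2.36, SE 0.61, edgeR adjusted p 0.0686, neither called) and below WT at day 4 (-2.70, SE 0.31, edgeR adjusted p 3.57e-05). The difference between the genotypes in the change from day 1 to day 4 was -5.06 (SE 0.66, edgeR adjusted p 0.000455), the largest of the 12 called. DESeq2 also called Col5a3 and Col5a2 at day 1, together with Col4a1, Col4a2, Col6a2 and Col6a3.

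Col11a2, a chain of type XI collagen known from cartilage, was the 1 member higher in KO at day 4, at a low level. It had 2, 0 and 0 counts at day 0, 8, 1 and 4 at day 1 and 42, 23 and 29 at day 4 in KO. In the WT libraries it had 0, 0 and 0 counts at day 0, 3, 1 and 2 at day 1 and 5, 11 and 2 at day 4. On the log2 scale KO over WT at day 4 was 2.21 (SE 0.56, edgeR adjusted p 0.01). The call was lost without KO day 4 replicate 1, WT day 4 replicate 1 or WT day 4 replicate 3 and without the WT libraries numbered 1 (adjusted p 0.0037 to 0.0854 over all alternatives). Col27a1, a fibrillar collagen of cartilage and other tissues, was below 2 CPM in every library. In the full data with TMM it was called higher in KO at day 4 than at day 0, from 7 counts in KO day 0. In WT it was called higher at day 4 than at day 1, from 15 counts in WT day 1. Its day 4 levels were 1.48, 1.25 and 1.34 CPM in KO, against 1.06, 1.43 and 0.846 CPM in WT, and did not pass the test (0.28, SE 0.34, edgeR adjusted p 0.662).

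Col4a1 and Col4a2, which encode the chains of the type IV network found in nearly every basement membrane, were the most abundant collagens at day 0 per kilobase in KO and in WT. Col4a1 (chromosome 8, 11198423 to 11312826, minus strand) had 152, 167 and 112 CPM at day 0, 53.4, 52.3 and 29.2 at day 1 and 16.2, 11.8 and 12.9 at day 4 in KO. In WT, Col4a1 had 85.5, 109 and 104 CPM at day 0, 18.3, 21.9 and 18.9 at day 1 and 38.5, 49.8 and 32.5 at day 4. Both genotypes fell at day 1 (-1.68, SE 0.24, edgeR adjusted p 2.9e-05 in KO and -2.34, SE 0.26, edgeR adjusted p 2.76e-06 in WT). At day 4 Col4a1 fell further in KO (-1.73, SE 0.24, edgeR adjusted p 2.83e-05) and was higher than at day 1 in WT (1.04, SE 0.25, edgeR adjusted p 0.00289). With library totals the KO change from day 1 to day 4 was 0.10. The KO libraries thus lay above WT at day 1 (1.20, SE 0.25, edgeR adjusted p 0.0364) and below WT at day 4 (-1.56, SE 0.23, edgeR adjusted p 0.000658). The day 1 difference passed the test with edgeR in the full data, and not when KO day 1 replicate 1, KO day 1 replicate 2 or any WT day 1 library was left out (0 collagens called in each case) or without the WT libraries numbered 1, so that its adjusted p reached 0.146. It was also lost with only the groups compared, where Col5a3 was the single collagen called instead. Without KO day 1 replicate 3, 4 collagens were called higher in KO at day 1.

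Col4a2 (chromosome 8, 11312805 to 11449287, plus strand) had 97.2, 112 and 68.6 CPM at day 0, 38.2, 38.1 and 18.7 at day 1 and 9.05, 5.02 and 6.12 at day 4 in KO. Col4a2 in WT had 52.9, 83.95 and 72.7 CPM at day 0, 14.1, 15.7 and 15.4 at day 1 and 25.04, 32.1 and 23.6 at day 4. It followed Col4a1 from day to day, as its difference of KO from WT at day 4 was -1.999 (SE 0.29, edgeR adjusted p 0.00077) and the difference in the change from day 1 to day 4 was -3.08 (SE 0.43, edgeR adjusted p 0.00214), against -2.76 (SE 0.34, edgeR adjusted p 0.000701) for Col4a1. The Col4a1 to Col4a2 ratio per kilobase was 1.52 ± 0.0690, 1.40 ± 0.0981 and 2.02 ± 0.273 in KO and 1.41 ± 0.154, 1.27 ± 0.0837 and 1.45 ± 0.0946 in WT at days 0, 1 and 4 (SD, n = 3 each). At day 4 the KO ratios of 1.74, 2.28 and 2.04 lay above the WT ratios of 1.49, 1.51 and 1.34. These genes overlap at their first bases and each overlaps another listed gene on the other strand, and the strand setting of the counting is not stated, so reads there cannot be told apart.

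The other chains of type IV collagen were weakly expressed. Col4a5, a chain of specialised basement membranes, was not lower in KO at day 4, with 4.67, 4.65 and 4.41 CPM in KO against 3.54, 3.86 and 3.58 CPM in WT (0.32, SE 0.17, edgeR adjusted p 0.247, not called). With only the groups compared, Col4a5 was called higher in KO at day 4, as were Col11a2, Col20a1 and Col26a1. It rose at day 4 against day 1 in both genotypes (2.17, SE 0.24, edgeR adjusted p 5.26e-09 in KO and 1.88, SE 0.26, edgeR adjusted p 4.43e-07 in WT). Col4a6, its neighbour on chromosome X, was below 1.5 CPM in every library. In the full data with TMM it was called in WT, lower at day 1 than at day 0 and higher at day 4 than at day 1, on 3 WT libraries a day with at most 30 counts each, and the difference between genotypes in these changes was not called. In KO it was called higher at day 4 than at day 0 without KO day 0 replicate 1 and with library totals.

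Col15a1 and Col18a1 encode collagens of the basement membrane zone, and the end of the Col18a1 protein is released as endostatin, an inhibitor of vessel growth. Col15a1 (chromosome 4, 47208161 to 47313167, plus strand) had 45.1, 48.7 and 28.1 CPM at day 0, 6.94, 2.46 and 1.93 at day 1 and 2.21, 1.23 and 2.17 at day 4 in KO. WT cultures had for Col15a1 21.9, 36.2 and 40.2 CPM at day 0, 2.04, 4.76 and 2.23 at day 1 and 10.7, 11.4 and 7.96 at day 4. Both genotypes were lower at day 4 than at day 0 (-4.44, SE 0.41, edgeR adjusted p 5.15e-07 in KO and -1.72, SE 0.37, edgeR adjusted p 0.00129 in WT, where library totals gave 1.23 for WT), and KO was lower than WT at day 4 (-2.42, SE 0.38, edgeR adjusted p 0.00141). Col18a1 (chromosome 10, 77052178 to 77166548, minus strand) had 9.51, 8.57 and 5.98 CPM at day 0, 21.4, 20.5 and 11.2 at day 1 and 9.05, 7.44 and 6.98 at day 4 in KO. The WT libraries had 8.48, 14.9 and 10.4 CPM at day 0, 12.9, 13.6 and 12.8 at day 1 and 13.1, 13.8 and 9.72 at day 4. Its course was unlike that of type IV collagen, since KO was higher at day 1 than at day 0 (1.14, SE 0.26, edgeR adjusted p 0.000686) and WT was not called (0.21, SE 0.26, edgeR adjusted p 0.507). The difference between genotypes in this first-day change was not called for Col18a1. Its day 4 difference was the smallest of those called (-0.64, SE 0.18, edgeR adjusted p 0.0299) and was lost in 6 alternatives (adjusted p 3.62e-05 to 0.189), among them leaving out KO day 4 replicate 2, KO day 4 replicate 3, WT day 4 replicate 1 or WT day 4 replicate 2. That call was also lost without the WT libraries numbered 1 and with library totals.

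**Figure D4:**
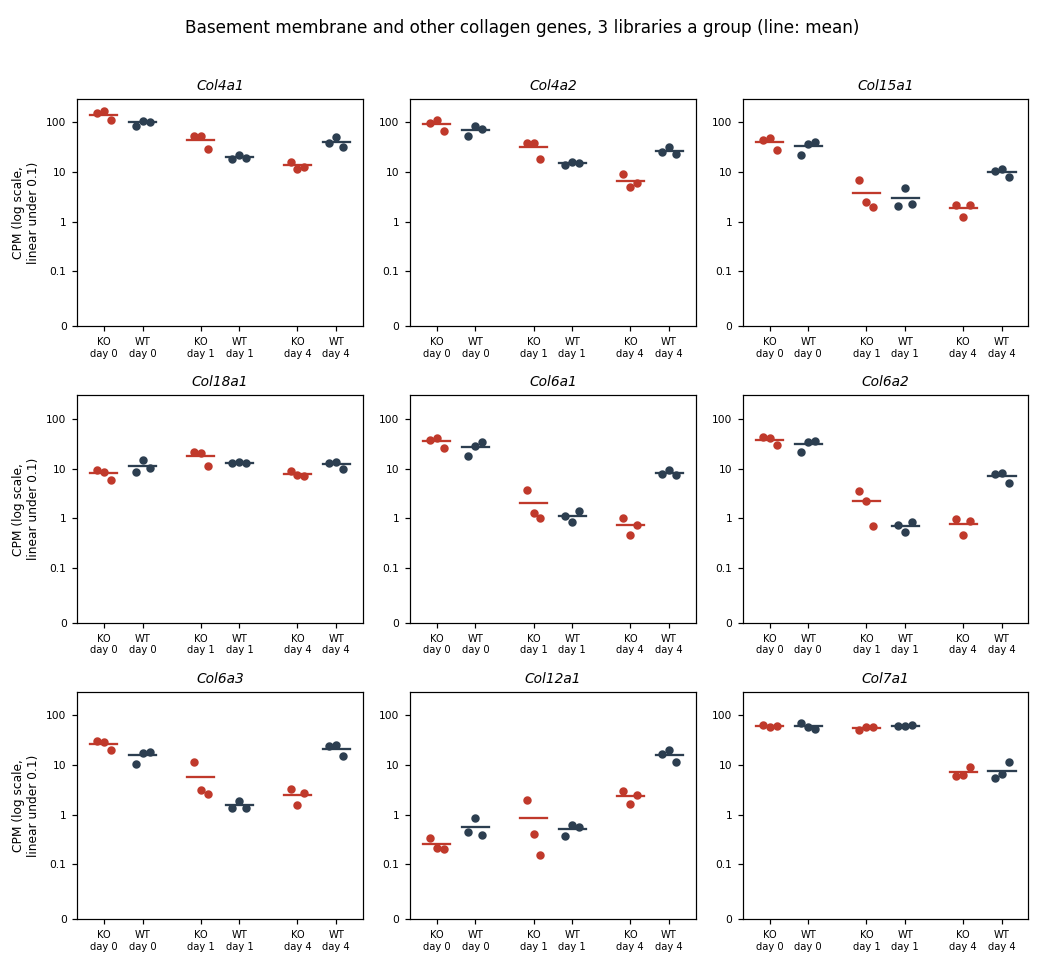
CPM of 4 basement membrane collagens (Col4a1, Col4a2, Col15a1, Col18a1) and 5 other collagens (Col6a1, Col6a2, Col6a3, Col12a1, Col7a1) in each library (log axis, linear under 0.1), for KO (red) and WT (grey) at days 0, 1 and 4, with the mean as a line. At day 4 Col7a1 is low in both genotypes and its KO and WT points overlap, whereas the day 4 points of the 3 type VI chains are separate.

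Type VI collagen forms beaded microfilaments between basement membranes and the interstitial matrix, from the chains of Col6a1, Col6a2 and Col6a3. Col6a1 (chromosome 10, 76708792 to 76726168, minus strand) had 37.7, 42.01 and 26.1 CPM at day 0, 3.74, 1.296 and 1.01 at day 1 and 1.005, 0.455 and 0.728 at day 4 in KO. WT cultures had for Col6a1 17.6, 28.9 and 34.98 CPM at day 0, 1.11, 0.827 and 1.39 at day 1 and 7.92, 9.25 and 7.34 at day 4. Its day 4 difference of -3.47 (SE 0.34, edgeR adjusted p 1.94e-05) was the largest fall among all tested collagens, 11.1-fold lower in KO. Col6a2, a neighbour of Col6a1 (chromosome 10, 76595762 to 76623630, minus strand), had 42.5, 42.01 and 30.3 CPM at day 0, 3.605, 2.25 and 0.696 at day 1 and 0.956, 0.455 and 0.87 at day 4 in KO. WT had 21.6, 34.1 and 35.95 CPM at day 0, 0.742, 0.517 and 0.836 at day 1 and 7.75, 8.22 and 5.08 at day 4. It differed at day 4 by -3.19 (SE 0.34, edgeR adjusted p 3.39e-05). For both genes WT at day 4 stayed below WT at day 0 (-1.74, SE 0.30 for Col6a1 and -2.13, SE 0.30 for Col6a2), with values of 1.20 and 0.83 under library totals.

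Col6a3 (chromosome 1, 90765923 to 90843971, minus strand) had 29.9, 29.5 and 20.1 CPM at day 0, 11.3, 3.07 and 2.55 at day 1 and 3.24, 1.58 and 2.78 at day 4 in KO. In WT, Col6a3 had 10.7, 17.8 and 18.6 CPM at day 0, 1.39, 1.86 and 1.39 at day 1 and 23.6, 24.8 and 14.8 at day 4. At day 4 the KO libraries were lower (-3.05, SE 0.41, edgeR adjusted p 0.000499), while WT day 4 did not differ from WT day 0 past the threshold (0.42, SE 0.44, edgeR adjusted p 0.444). The Col6a3 to Col6a2 ratio per kilobase was 0.480 ± 0.0152 in KO and 0.356 ± 0.00980 in WT at day 0, and 2.34 ± 0.0999 in KO and 2.09 ± 0.0436 in WT at day 4 (SD, n = 3 each). This ratio therefore moved in the same direction in both genotypes and by far more than the spread between libraries. The Col6a1 to Col6a2 ratio was 1.74 ± 0.140 in KO and 1.67 ± 0.160 in WT at day 0 and 1.83 ± 0.213 in KO and 2.28 ± 0.422 in WT at day 4.

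**Figure D5:**
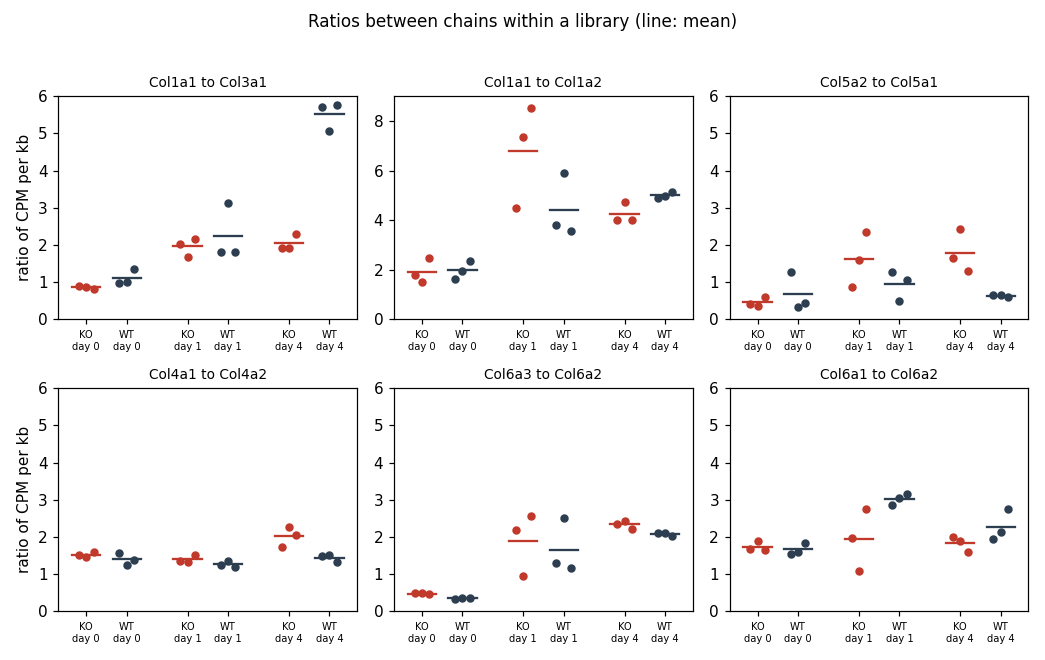
Ratios of the levels per kilobase of pairs of collagen chains within each library (linear axes from 0), for KO (red) and WT (grey) at days 0, 1 and 4, with the mean as a line. At day 4 the Col1a1 to Col3a1 ratio was 1.91 to 2.30 in KO and 5.06 to 5.75 in WT, and the Col6a3 to Col6a2 ratio was 2.23 to 2.42 in KO and 2.04 to 2.12 in WT.

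Among the collagens that decorate fibrils, Col12a1, found in tissues under tension, had the steepest rise. Col12a1 (chromosome 9, 79598991 to 79718831, minus strand) had 0.346, 0.209 and 0.199 CPM at day 0, 2.003, 0.409 and 0.155 at day 1 and 3.05, 1.63 and 2.53 at day 4 in KO. Levels in WT were 0.446, 0.837 and 0.387 CPM at day 0, 0.371, 0.621 and 0.557 at day 1 and 16.6, 19.6 and 11.2 at day 4. It was higher at day 4 than at day 0 in KO (3.21, SE 0.92, edgeR adjusted p 0.00609) and in WT (4.82, SE 0.61, edgeR adjusted p 3.01e-06), and KO was lower than WT at day 4 (-2.72, SE 0.30, edgeR adjusted p 3.16e-05). Col14a1 (chromosome 15, 55307750 to 55520803, plus strand), another fibril-associated collagen, went the other way. It had 6.23, 8.36 and 4.19 CPM at day 0, 0.401, 0.341 and 0.0774 at day 1 and 0.0973, 0.101 and 0.0474 at day 4 in KO. In WT, Col14a1 had 6.02, 6.07 and 8.12 CPM at day 0, 0, 0 and 0.186 at day 1 and 0.341, 0.172 and 0.342 at day 4. It was lower at day 4 than at day 0 in both (-6.18, SE 0.49, edgeR adjusted p 1.96e-12 in KO and -4.55, SE 0.43, edgeR adjusted p 1.2e-10 in WT), and its day 4 difference of -1.74 (SE 0.52, edgeR adjusted p 0.0277) rests on 15 counts in KO against 48 in WT and was lost in 7 alternatives (adjusted p 0.00335 to 0.153), including without any 1 KO day 4 library and without WT day 4 replicate 1 or 3. The day 4 call of Col14a1 was also lost without the WT libraries numbered 1 and with library totals.

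Col16a1 (chromosome 4, 130047840 to 130099283, plus strand), of the same group, had 1.73, 2.72 and 2.39 CPM at day 0, 2.27, 1.36 and 1.31 at day 1 and 2.33, 1.75 and 1.57 at day 4 in KO. WT cultures had for Col16a1 2.01, 2.303 and 3.67 CPM at day 0, 0.185, 1.66 and 0.743 at day 1 and 4.33, 4.51 and 3.31 at day 4. KO was lower at day 4 (-1.10, SE 0.25, edgeR adjusted p 0.0039), and WT was lower at day 1 than at day 0 (-1.68, SE 0.48, edgeR adjusted p 0.00344) where KO was not called (-0.44, SE 0.42, edgeR adjusted p 0.38). The difference between genotypes in this first-day change was not called for Col16a1. Col8a1, a short-chain network collagen known from vessel walls, had 2, 1 and 0 counts at day 0, 3, 0 and 0 at day 1 and 10, 1 and 7 at day 4 in KO. In the WT libraries it had 1, 0 and 1 counts at day 0, 2, 1 and 2 at day 1 and 25, 44 and 40 at day 4. It was lower in KO at day 4 (-2.66, SE 0.55, edgeR adjusted p 0.00164), on fewer than 50 counts in every library.

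Col7a1, the anchoring fibril collagen that fastens epithelium to the tissue beneath, did not follow the fibrillar genes. It (chromosome 9, 108953586 to 108984875, plus strand) had 64.3, 58.7 and 60.0 CPM at day 0, 51.5, 57.1 and 59.03 at day 1 and 6.11, 6.28 and 9.08 at day 4 in KO. WT cultures had for Col7a1 71.4, 57.8 and 52.6 CPM at day 0, 61.5, 60.2 and 63.9 at day 1 and 5.42, 6.44 and 11.3 at day 4. It was not called over the first day (-0.13, SE 0.22, edgeR adjusted p 0.645 in KO and 0.03, SE 0.22, edgeR adjusted p 0.914 in WT) and was lower at day 4 than at day 1 in KO (-2.96, SE 0.23, edgeR adjusted p 4.21e-08) and in WT (-3.002, SE 0.23, edgeR adjusted p 3.82e-08). With library totals Col7a1 was called higher at day 1 than at day 0 in both genotypes, and the change from day 0 to day 4 was -0.02 in KO and 0.0022 in WT. The genotypes overlapped at days 0 and 4, and at day 1 all KO libraries lay below the WT libraries without a call (-0.15, SE 0.21). The day 4 difference was -0.11 (SE 0.22, edgeR adjusted p 0.821). By day 1 Col7a1 made 21.4% of all collagen signal per kilobase in KO and 38.2% in WT.

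Among the remaining tested collagens, some changed alike in both genotypes. Col13a1, a transmembrane collagen, had 4, 9 and 18 counts at day 0, 35, 55 and 12 at day 1 and 2, 0 and 0 at day 4 in KO. The WT libraries had 3, 0 and 10 counts at day 0, 7, 9 and 8 at day 1 and 2, 0 and 0 at day 4, so that it was nearly at 0 by day 4 in both. Col6a6, a further type VI chain, was lower at day 4 than at day 0 in KO (-4.57, SE 0.60, edgeR adjusted p 8.86e-08) and in WT (-4.50, SE 0.56, edgeR adjusted p 4.19e-08). Col26a1 was called higher at day 1 than at day 0 in both genotypes, and had 1, 0 and 2 counts at day 0, 13, 8 and 28 at day 1 and 32, 29 and 46 at day 4 in KO. WT had 1, 0 and 0 counts at day 0, 5, 3 and 14 at day 1 and 10, 14 and 20 at day 4. Its call was lost in KO without KO day 0 replicate 1, KO day 0 replicate 2 or KO day 1 replicate 3, in WT without WT day 0 replicate 2, WT day 0 replicate 3 or WT day 1 replicate 3, and in both with only the groups compared. Col23a1 had 0 counts in all day 1 libraries and at most 19 in any other. With TMM, Col23a1 was at least 10.02-fold lower in KO at day 1 than at day 0. This bound sets a floor of 3 counts over the day 1 group. It takes the 11 counts of KO day 0, at 0.173 to 1.46 CPM, as exact. Col20a1 was called in no comparison in the full data with TMM, and was called higher in KO than in WT at day 4 with only the groups compared, and higher at day 4 than at day 0 in KO without a filter, without KO day 0 replicate 1 or KO day 4 replicate 1 and with library totals. Col4a6, Col20a1 and Col26a1 were named after their values were seen, to account for every tested member.

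Genes that act on collagens were examined from lists chosen with earlier results of these data known. Of 12 tested collagen-binding proteoglycans and glycoproteins, which coat or link fibrils, 10 were lower in KO at day 4 and none was higher, where 6.39% of all genes were lower and 3.83% higher, with a median log2 difference of -1.68 against -0.02 over all genes. Thbs2, a matrix protein that regulates fibril assembly, differed by -3.64 (SE 0.34, edgeR adjusted p 3.42e-08), and Lum, a proteoglycan of fibril spacing, by -1.76 (SE 0.43, edgeR adjusted p 0.0076), whereas Thbs1 did not pass the test (-0.04, SE 0.21, edgeR adjusted p 0.945). Of 9 tested genes for propeptide removal and cross-linking, 7 were lower in KO at day 4, with a median of -2.31. Pcolce, which enhances the removal of the procollagen end, differed by -1.66 (SE 0.27, edgeR adjusted p 0.00044), whereas Bmp1, the protease itself, and Loxl4, a cross-linking enzyme, did not pass the test (-0.29, SE 0.22 and -0.06, SE 0.22). All 9 of these genes and all 12 of the binding proteins rose between day 1 and day 4 in WT, where 26.3% of all genes were higher. In KO, 2 of the 9 were higher and 1 lower, and 4 of the 12 were higher and 3 lower, where 26.2% of all genes were higher and 27.1% lower.

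Of 18 tested genes that modify and fold collagen inside the cell, 5 were lower in KO at day 4 and none was higher (6.39% and 3.83% of all genes), with a median of -0.27 against -0.02 over all genes. P4hb and Ppib, which also fold other secreted proteins, were lower at day 4 than at day 0 in both genotypes with TMM (-2.79, SE 0.13 in KO and -2.78, SE 0.13 in WT for P4hb, and -2.23, SE 0.12 in KO and -2.20, SE 0.12 in WT for Ppib). These falls are relative to the middle of all genes. As a share of library totals, the 20 listed genes together rose from 0.131% at day 0 to 0.242% at day 4 in KO and from 0.139% to 0.245% in WT. Serpinh1, a chaperone specific to procollagen, did not differ past the threshold at day 4 (0.07, SE 0.17, edgeR adjusted p 0.852) and was chosen after its value was seen. Of 14 tested basement membrane partners, 6 were lower in KO at day 4, of 8 receptors 4 and of 9 proteases and inhibitors 4, and none was higher, beside 6.39% of all genes lower and 3.83% higher. Lama5, a laminin chain of epithelial basement membranes, had risen by day 4 relative to day 0 in KO (2.57, SE 0.13) and in WT (2.13, SE 0.12) and did not pass the test between genotypes (0.04, SE 0.10).

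Markers of other cell types were summed in the same libraries. The summed level of 10 fibroblast and stellate markers that are no collagens was 52.8 to 85.1 CPM in day 0, 6.42 to 20.96 CPM in day 1 and 3.92 to 8.43 CPM in day 4 libraries of KO. In WT it was 40.8 to 72.0, 4.54 to 8.69 and 18.6 to 26.2 CPM on the same days. At day 4 these markers and the fibrillar sum were both lower in KO than in WT without overlap, whereas in WT with TMM the markers lay below their day 0 range and the fibrillar sum above its own. That contrast with day 0 depends on the scaling. As a share of library totals, the markers took 0.00235% of counts at day 0 and 0.00666% at day 4 in WT. In KO the shares were 0.0026% and 0.00188%. With library totals the WT fibrillar sum was 59.5 CPM at day 0 and 959.6 CPM at day 4. At day 4, 5 of 7 tested markers were lower in KO and none was higher (6.39% and 3.83% of all genes), none of the 10 was at 0 in either genotype, and Dcn and Lum stand in this list and in that of collagen-binding proteins. The summed level of 8 smooth muscle and pericyte markers at day 4 was 18.3 to 22.1 CPM in KO and 17.6 to 22.0 CPM in WT, so these sums overlapped. Of these 8 markers, 1 was higher and 2 were lower in KO at day 4, where 3.83% of all genes were higher and 6.39% lower. The 8 endothelial markers were all lower at day 4 than at day 0 in both genotypes. Of all genes, 29% were lower over that time in KO and 26.9% in WT. The endothelial markers summed to 1.53 to 3.24 CPM in KO and 2.03 to 5.08 CPM in WT at day 4. Mesothelial markers (4 listed) were at 0.774 to 1.05 CPM in KO and 2.59 to 4.58 CPM in WT at day 4. The part of such cells in the collagen differences was not tested.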

How the data were processed

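RNA of cultured pancreatic acinar cells of KO and WT mice was sequenced by the authors as single-end reads (TruSeq), trimmed and filtered with FastX and ShortRead, and aligned to GRCm38 with an Ensembl annotation. As deposited, the counts are whole numbers of reads per gene for 46603 genes, for which the authors ran featureCounts 1.5.3. Which aligner and which strand option were used is not given in the sources used here. A deposited FPKM table, quantile normalised by the authors with EDASeq, was not used. Samples were grouped by genotype and day (3 libraries a group, 18 in all), and 0 columns belonged to other samples. The libraries of a group are called biological replicates, but whether they came from separate mice is not stated, so p-values measure the spread between these libraries.

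In edgeR 4.0.16 under R 4.3.3, filterByExpr kept 13203 genes. Libraries were scaled by TMM and genes tested with the robust quasi-likelihood F-test in 1 model of the 6 groups, over 11 comparisons. A call is a p under 0.05 after Benjamini-Hochberg adjustment over all tested genes, and the code was tested on simulated data. CPM were computed on the TMM-scaled library totals, and levels are compared between genes per kilobase of the deposited gene length. Total counts were 12127474 to 20135435, and collagen counts 1299 to 32457, per library. Chromosomes came from GENCODE M21 (GRCm38), which holds all 44 collagen genes, 42 at identical coordinates. Of the 44, 17 overlap a listed gene on the other strand.

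The members and lists were chosen with earlier results of these data known. Members with a group mean of at least 5 CPM, or called between KO and WT, are given by library (19 genes); of the related lists, genes are named by the smallest adjusted p between day 4 and day 0 in KO or WT, in each direction. Alternatives were RLE factors, library totals, DESeq2 1.42.0, no filter, only the groups compared, a replicate block, each library left out, the WT libraries numbered 1 left out and, chosen after seeing the data, KO day 1 replicate 1 and WT day 0 replicate 1 left out together. Same-numbered libraries deviated together in 4 of 18 pairs across days and 1 of 9 pairs of KO and WT (correlation over 0.1), against 10 of 108 other pairs. The median correlation was 0.069 across days, -0.0306 between KO and WT and -0.008 in other pairs. Ddx3y was found in the WT libraries numbered 1 at every day. These values do not settle whether a number marks 1 culture or mouse, which the labels do not state. Numbers were therefore not taken as pairs in the main model, and the replicate block is the alternative.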

Additional observations from a re-analysis of the deposited data

Results flagged for a closer look

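For 12 collagen genes the change from day 1 to day 4 differed between KO and WT by a test of the difference itself in edgeR, and in each case the KO change lay below the WT change. On the log2 scale, as KO minus WT, the differences of the fibrillar genes were -4.83 for Col1a1, -4.99 for Col5a1, -4.01 for Col5a2 and -5.06 for Col5a3. Those of the basement membrane genes were -2.76 for Col4a1, -3.08 for Col4a2 and -1.08 for Col18a1. Those of the others were -4.35 for Col6a1, -4.85 for Col6a2, -4.94 for Col6a3, -3.50 for Col12a1 and -2.09 for Col16a1. The calls least often kept were those of Col18a1, lost in 13 alternatives, Col5a1, lost in 11, and Col12a1, lost in 9. Those of Col4a1, Col4a2, Col5a3, Col6a1 and Col6a2 were kept in all alternatives run.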

How the results depend on the processing

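No call between KO and WT at a day took the other sign under the alternatives run. Among the 19 collagens given by library, 16 called changes over time took the other sign with library totals, all of them falls with TMM. The signs of the other tested members were not compared in this way. For KO day 4 against day 1 they were Col6a1 (0.34), Col18a1 (0.64), Col5a3 (0.71), Col6a2 (0.27), Col14a1 (0.0479) and Col4a1 (0.10). For KO day 4 against day 0 they were Col1a1 (1.81), Col3a1 (0.59), Col5a1 (0.53) and Col1a2 (0.59). For WT day 4 against day 0 they were Col6a1 (1.20), Col6a2 (0.83), Col7a1 (0.0022), Col15a1 (1.23), Col4a1 (1.66) and Col4a2 (1.58). The totals themselves shift all genes, as the medians in the results show. Counts of higher and lower collagens with library totals were 6 and 9 (KO day 1 against day 0), 15 and 2 (KO day 4 against day 1), 11 and 6 (KO day 4 against day 0), 4 higher (WT day 1 against day 0), 23 and 3 (WT day 4 against day 0) and 7 higher (KO against WT at day 1). With this scaling 2347 of all 13203 tested genes were higher in KO at day 1. The results give such counts of all genes for the changes over time. DESeq2 gave 5 higher for KO day 4 against day 1 and 6 higher for KO against WT at day 1. Without a filter on low counts the counts higher were 4 for KO day 4 against day 1, 1 for KO against WT at day 0, 2 at day 1 and 1 in the change from day 0 to day 1. With only the groups compared, they were 1 for KO day 1 against day 0, 1 for KO day 4 against day 1, 0 for WT day 1 against day 0 and 4 for KO against WT at day 4. The replicate block gave 4 higher for KO day 4 against day 1 and 3 higher for KO against WT at day 1, and moved no other count by over 1.5 times. Without the WT libraries numbered 1, the counts were 0 higher at day 1, 0 higher at day 4 and 5 lower in the change from day 1 to day 4. With KO day 1 replicate 1 and WT day 0 replicate 1 left out together, an alternative chosen after seeing the data, KO day 4 against day 1 had 8 higher and 5 lower, and 0 were higher at day 1.

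With each library left out in turn, the counts ranged from 1 (without KO day 0 replicate 1, KO day 0 replicate 2 or KO day 1 replicate 3) to 2 higher (KO day 1 against day 0), 1 to 7 higher and 5 to 11 lower (KO day 4 against day 1), 2 to 5 higher (KO day 4 against day 0, the 5 without KO day 0 replicate 1), 0 (without WT day 0 replicate 2, WT day 0 replicate 3 or WT day 1 replicate 3) to 1 higher (WT day 1 against day 0), 0 to 4 higher (KO against WT at day 1), 0 to 1 higher (KO against WT at day 4) and 7 to 14 lower (change from day 1 to day 4). Collagen counts at day 1 in WT, 1299 to 1390 per library over all 44 genes, limit the precision of every change that starts there.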
